A study of Mus musculus with 2 samples.

Results

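The genes described here are 10 transcriptional outputs and brakes of the RAS-ERK pathway, Dusp6, Dusp4, Spry1, Spry2, Spry4, Spred1, Spred2, Etv1, Etv4 and Etv5. They were found by symbol among the 19059 genes of a single-cell RNA-seq series, and all 10 were present. The cells came from orthotopic brain tumors that a mouse glioblastoma stem cell line (mGSC) of genotype Trp53+/- and Nf1+/- had formed in C57BL/6J mice. Mice were given daily vehicle or daily Xevinapant, a SMAC mimetic that targets the inhibitor of apoptosis proteins cIAP1, cIAP2 and XIAP. Both groups carried the same line and genotype, so no Nf1 wild-type tumor stood beside them, and all tumors were grown from 1 line. The question was at what level the members stood in each tumor state and host cell type, and whether Xevinapant moved them.

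RAS proteins pass signals from growth factor receptors through the kinases RAF and MEK to ERK, and neurofibromin, the product of Nf1, switches RAS off by speeding up its GTP hydrolysis. ERK induces its own brakes: DUSP6 and DUSP4 are phosphatases that remove phosphate from MAP kinases, Sprouty proteins dampen receptor signaling upstream of RAF, and Spred proteins bind neurofibromin and bring it to the membrane. ETV1, ETV4 and ETV5 are ETS transcription factors of the PEA3 group whose genes are induced by receptor and ERK signaling, and in the oligodendrocyte lineage ERK activity accompanies progenitor growth and the onset of differentiation. NF1 is mutated in part of human glioblastomas, where its loss is linked to the mesenchymal state.

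The files held 56943 barcodes in 8 matrices of UMI counts, 4 per group, of which 54574 passed the filters on genes, mitochondrial share and complexity. Total UMIs per matrix ran from 71835789 to 300206053 and median UMIs per barcode from 7452 to 14027. Within a group, 3 pairs of matrices differed far less than the 9 other pairs, and each pair was joined, which left 3 vehicle samples (vehicle 1+3, vehicle 2, vehicle 4) and 2 Xevinapant samples (Xevinapant 1+2, Xevinapant 3+4). Values over the 5 samples are given below in that order. Each group was 1 pool with 1 batch date, so that pool, date and treatment cannot be told apart. The files of the Xevinapant sample also carry the word Vehicle, and the sample label was followed. Within the vehicle group 3849 droplet barcodes occurred in 2 matrices and 361 in 3 and within the Xevinapant group 2958 and 299. The labels and the design text give 4 tumors per group, and whether joined matrices came from the same tumor was not tested. No source says that the matrices came from separate cultures of the line, and p-values measure only the spread between these samples, which may be technical.

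Cells were assigned by gates, at least 3 marker genes with a UMI plus a minimum summed level, with no member in any gate. The malignant gate used expression of Olig1, Olig2, Sox10, Sox2, Ptprz1, Bcan, Fabp7 and Cspg5 and no copy number. Host cells of the oligodendrocyte lineage were therefore not told apart from tumor cells. Of 41078 malignant cells, 7133 passed the oligodendrocyte progenitor cell-like (OPC-like) gate, 2089 the committed oligodendrocyte-like gate, 2851 the astrocyte-like (AC-like) gate, 390 the neural progenitor cell-like (NPC-like) gate and 2498 the mesenchymal-like (MES-like) gate, while 26117 passed none. The gates held cells near their limits, 2634 of the OPC-like, 299 of the committed, 382 of the AC-like, 160 of the NPC-like and 576 of the MES-like cells, and 2406 malignant cells passed more than 1. The malignant markers summed to between 5853 and 7897 CPM (UMIs of a gene over all UMIs of the class, on the standard CPM scale) in malignant cells and to between 453 and 706 CPM in microglia. Malignant cells had to exceed a minimum of these same markers and host cells to stay under it. The gap therefore follows from the gates and is no check of them. Host classes were small: 763 microglia, 978 macrophages and monocytes, 321 neutrophils, 151 T and NK cells, 227 endothelial cells and 590 fibroblasts. Nf1 measured 162, 168, 155, 184 and 166 CPM in malignant cells and Trp53 238, 274, 220, 316 and 255 CPM. Both genes were thus detected in every sample, which checks nothing about the genotype, because the sources used here do not say where the probes lie relative to the altered alleles.

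The members are protein-coding genes. On the GRCm38 build 9 of them lie as follows: Dusp6 at chr10:99263231-99267489, Dusp4 at chr8:34807297-34819894, Spry1 at chr3:37639947-37644598, Spry2 at chr14:105891947-105896819, Spred1 at chr2:117121374-117182279, Spred2 at chr11:19924375-20024026, Etv1 at chr12:38779380-38870484, Etv4 at chr11:101769742-101785371 and Etv5 at chr16:22381309-22439719. Of these, Spry2, Etv4 and Etv5 are on the minus strand.

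Most members moved together in 1 state, described next, so the 250 bases before the transcription start are shown for the members with an available window that moved most there, Etv5, Dusp6 and Spry2. The windows are from RefSeq on GRCm38.p6, 5′ to 3′ on the gene's strand, at chr10:99262981-99263230 (Dusp6), chr14:105896820-105897069 (Spry2), chr16:22439571-22439820 (Etv5, first start) and chr16:22438369-22438618 (Etv5, second start). Capitals mark GGAA and its reverse complement TTCC, the core that ETS factors bind.
Dusp6: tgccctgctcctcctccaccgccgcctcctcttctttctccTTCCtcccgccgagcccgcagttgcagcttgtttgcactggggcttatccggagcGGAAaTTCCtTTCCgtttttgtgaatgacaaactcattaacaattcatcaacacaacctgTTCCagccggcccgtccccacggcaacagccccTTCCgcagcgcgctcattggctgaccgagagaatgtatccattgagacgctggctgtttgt
Spry2: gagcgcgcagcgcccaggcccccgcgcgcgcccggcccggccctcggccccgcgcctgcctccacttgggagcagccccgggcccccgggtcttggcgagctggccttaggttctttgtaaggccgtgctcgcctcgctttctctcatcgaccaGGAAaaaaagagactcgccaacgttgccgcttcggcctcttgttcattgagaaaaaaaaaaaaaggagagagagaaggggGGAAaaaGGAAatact
Etv5, first start: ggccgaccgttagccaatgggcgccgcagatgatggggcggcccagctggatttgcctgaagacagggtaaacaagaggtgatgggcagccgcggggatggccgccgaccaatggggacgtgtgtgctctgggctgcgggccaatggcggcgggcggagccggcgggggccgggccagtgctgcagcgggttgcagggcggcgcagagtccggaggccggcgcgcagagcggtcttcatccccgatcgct
Etv5, second start: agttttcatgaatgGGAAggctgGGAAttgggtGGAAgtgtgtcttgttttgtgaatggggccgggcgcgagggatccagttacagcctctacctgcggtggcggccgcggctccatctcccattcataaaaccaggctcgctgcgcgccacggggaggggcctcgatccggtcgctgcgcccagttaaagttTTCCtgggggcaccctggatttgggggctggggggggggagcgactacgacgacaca
The core occurred 6 times before Dusp6, 3 times before Spry2, and 0 and 4 times before the starts of Etv5. In all, windows of 7 members matched, 9 windows with 8 holding the core, against 93.4% of 32536 different promoter windows of the same length, where the median was 3 occurrences. A window with the core is therefore the usual case among promoters.

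All 10 members were lower in committed oligodendrocyte-like cells, the cells gated on markers that include Gpr17, Bcas1 and Enpp6, than in the other malignant cells of the same samples. The differences ran from a 4.47-fold lower level of Etv4 to a 1.24-fold lower level of Etv1, and their median was -1.75 on the log2 scale beside -0.03 over all genes. Of all 14004 genes tested, 27.9% were called lower and 25.2% higher in these cells, beside 10 of 10 members lower. The members were chosen with earlier results of these data known, and most pairs of them correlated over the malignant states. The count is therefore a description. Calls here and below are edgeR quasi-likelihood tests on UMI sums per sample and class, with the sample as a block where 2 classes are compared and Benjamini-Hochberg adjustment over all genes, at an adjusted p of 0.05.

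Of the phosphatases, Dusp6, which acts on ERK itself, measured 41.8, 50.6, 43.0, 37.6 and 45.2 CPM in committed cells against 154, 138, 158, 170 and 188 CPM in the other malignant cells. The groups did not overlap in any sample, and the fitted difference was -1.88 ± 0.08 (SE, log2, n = 5 samples, adjusted p = 6.5e-08). Dusp4, a nuclear phosphatase of ERK and JNK, measured 10.8, 24.1, 6.57, 8.91 and 10.0 CPM against 41.8, 38.2, 19.9, 41.0 and 45.0 CPM. It was lower in each sample, although the committed cells of vehicle 2 lay above the other cells of vehicle 4, and the difference was -1.75 ± 0.22 (adjusted p = 0.00061).

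The Sprouty genes followed the same direction. Spry2 measured 61.2, 112, 82.6, 50.8 and 88.2 CPM in committed cells against 253, 272, 274, 274 and 320 CPM in the others, a difference of -1.85 ± 0.14 (adjusted p = 6.7e-05). Spry4 measured 16.7, 38.6, 15.4, 15.7 and 17.7 CPM against 65.0, 73.0, 59.1, 66.6 and 67.6 CPM, a difference of -1.76 ± 0.15 (adjusted p = 6.8e-05). The committed cells of vehicle 2, the sample with the fewest of them (169), stood highest for both genes and still lay below all 5 values of the other cells. Spry1 averaged 92.0 ± 15.1 CPM (SD, n = 5) against 208 ± 43.9 CPM, a smaller difference of -1.14 ± 0.05 (adjusted p = 4.1e-08).

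The neurofibromin partners differed from each other in size of change. Spred2 averaged 36.0 ± 3.96 CPM in committed cells against 85.0 ± 8.77 CPM, a difference of -1.20 ± 0.05 (adjusted p = 3.4e-08). Spred1, by contrast, averaged 348 ± 34.4 CPM against 492 ± 39.6 CPM, a difference of -0.46 ± 0.05 (adjusted p = 1.9e-05). Nf1 itself was higher in committed cells, at 214, 197, 177, 228 and 210 CPM against 157, 167, 155, 175 and 164 CPM in the others (0.36 ± 0.06, adjusted p = 0.00022). Trp53 differed by -0.01 ± 0.05 (adjusted p = 0.93).

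The ETS factors were split. Etv4 measured 17.1, 23.2, 22.5, 21.3 and 20.01 CPM in committed cells against 94.0, 72.0, 99.0, 111 and 90.3 CPM in the others (-2.16 ± 0.09, adjusted p = 4.0e-08). Etv5 measured 77.5, 128, 112, 69.6 and 97.8 CPM against 300, 361, 437, 311 and 404 CPM (-1.90 ± 0.08, adjusted p = 2.9e-08). Both were the members with the largest difference of all 10, while the third factor barely moved: Etv1 measured 308, 348, 268, 230 and 277 CPM against 404, 472, 361, 300 and 298 CPM (-0.31 ± 0.06, adjusted p = 0.0013). Its values overlapped between samples, and it was lower in the committed cells of each sample.

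Other cell properties moved with the committed state. Markers of myelinating oligodendrocytes (Mog, Mag, Mobp, Opalin and Cldn11) summed to 427 to 871 CPM in committed cells against 26.9 to 137 CPM in all malignant cells, and 28.6% of committed cells held 2 or more of them against 1.67% of the other malignant cells. Whether host oligodendrocytes were among the committed cells was not tested. With those cells left out, 9 of 10 members were lower, and Etv1 differed by -0.09 (adjusted p = 0.34). Of 13997 genes, 3422 were called lower and 3309 higher in that fit. Committed cells were also less often in the cell cycle gates, with 81.1% in neither gate against 53.0% of malignant cells. With cells outside those gates on both sides all 10 members were lower, where 3488 of 13639 genes were called lower and 3253 higher. Against OPC-like cells alone, where 27.1% of genes were called lower and 26.1% higher, 9 of 10 members were lower, and Dusp4, already low in OPC-like cells, differed by -0.52 ± 0.25 (adjusted p = 0.12). Median UMIs per cell were 18120 in committed cells and 14349 in malignant cells, so the lower levels did not accompany lower depth.

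**Figure D1:**
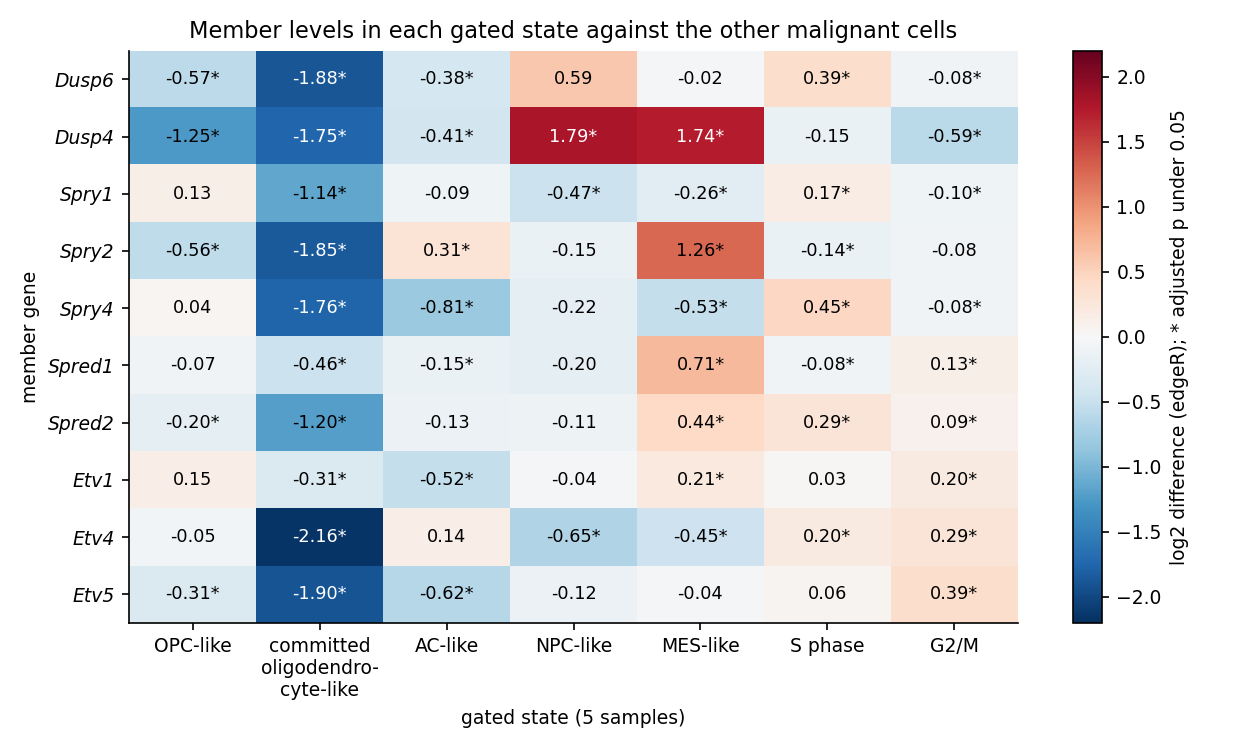
Each cell of the grid gives the fitted log2 difference of a member (rows) between a gated state and the other malignant cells (columns) over 5 samples, with a star where the adjusted p was under 0.05. The committed oligodendrocyte-like column is negative throughout, from -2.16 for Etv4 to -0.31 for Etv1, and Dusp4 changes sign between the committed state (-1.75) and the NPC-like and MES-like states (1.79 and 1.74).

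Most levels were also lower in cells with 4 or more committed markers than with 0, counted over all malignant cells whether or not they passed the gate. The course was not steady. From 0 to 1 marker all members but Spry2 and Dusp4 rose, such as Etv5 from 371 to 426 CPM and Spred2 from 85.4 to 94.9 CPM. Dusp6 averaged 230 ± 38.4 CPM (SD over 5 samples) in malignant cells with 0 of the markers, 246 ± 36.8 CPM with 1, 145 ± 18.6 CPM with 2, 143 ± 18.2 CPM with 3 and 103 ± 14.6 CPM with 4 or more. Spry2 went from 451 ± 38.2 CPM at 0 over 394 ± 36.0 CPM at 1, 260 ± 23.1 CPM at 2 and 245 ± 32.4 CPM at 3 to 164 ± 35.5 CPM at 4 or more. Etv1 took another course, from 269 ± 51.3 CPM at 0 to 383 ± 82.9 CPM at 2 and 292 ± 41.6 CPM at 4 or more. The markers counted are those of the gate, so the values partly repeat the comparison above. The number of markers detected also depends on a cell's depth, and these values are a description without a test.

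**Figure D2:**
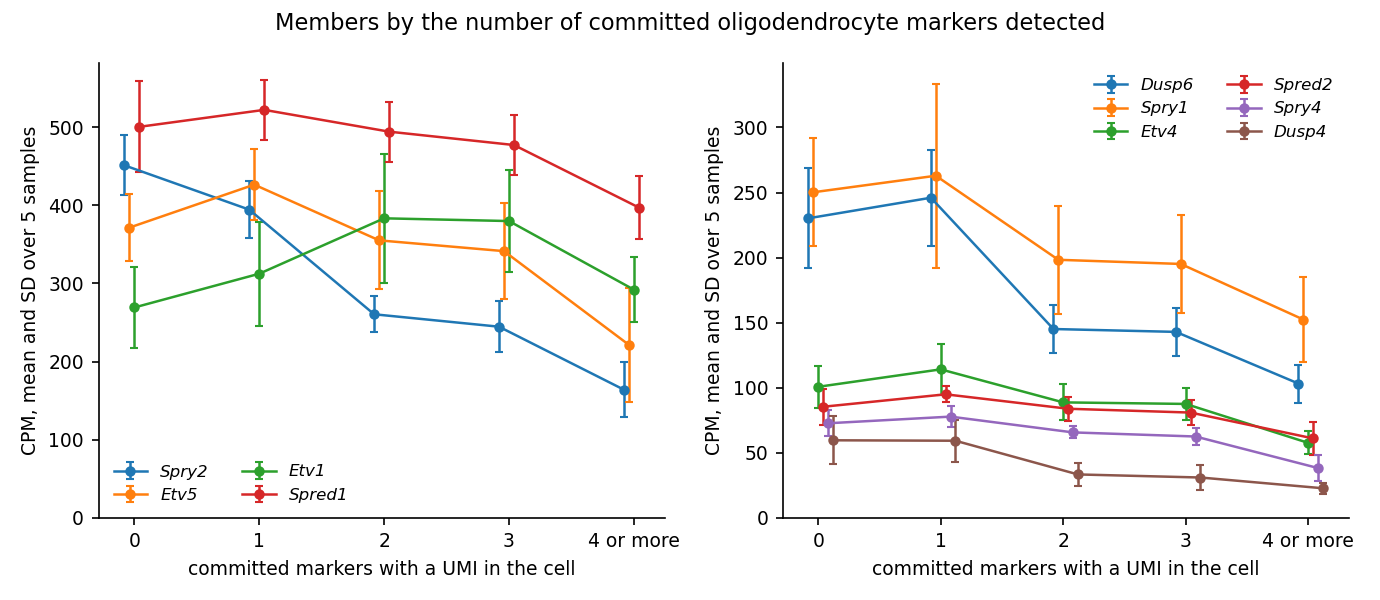
Mean CPM with the SD over 5 samples (vertical axis) is plotted for each member against the number of committed oligodendrocyte markers with a UMI in a malignant cell (horizontal axis, 2716 cells at 0 and 2516 at 4 or more). Spry2 goes from 451 to 164 CPM and Dusp6 from 230 to 103 CPM, while Etv1 is highest at 2 markers (383 CPM).

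The rest of the pathway in committed cells is given beside 25.2% of all genes called higher and 27.9% lower. Of 16 receptors 3 were higher and 8 lower, and of 13 ligands tested 2 were higher and 4 lower. Adaptors and RAS regulators gave 8 of 24 higher and 10 lower. Of the 9 kinases of the cascade 4 were higher and 0 lower, with a median of 0.09 on the log2 scale, and the others were not called. Among 33 further ERK outputs and feedback genes, 7 were higher and 16 lower, with a median of -0.47 on the log2 scale. The lowest p-values belonged to Il17rd, a transmembrane inhibitor of FGF signaling (-1.87), the receptor gene Igf1r (-1.27) and the cyclin gene Ccnd1 (-1.23), all lower, and to Dusp7, another ERK phosphatase, which was higher (1.09). The adaptor gene Gab1 (0.73), the ligand gene Pdgfa (0.97) and Myc (0.86) were higher too, while Ier2 (-1.13), Rras (-0.74) and Fgfr1 (-1.16) were lower. The direction of the 10 members was therefore not shared by every ERK output. Against OPC-like cells alone 9 of 32 further outputs were higher and 10 lower, with a median of 0.03. There 26.1% of all genes were called higher and 27.1% lower.

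In MES-like cells, gated on hypoxia-response genes such as Vegfa, Adm and Car9 with Akap12 and Wwtr1, the members split. Dusp4, Spry2, Spred1, Spred2 and Etv1 were higher than in the other malignant cells, Spry4, Etv4 and Spry1 were lower, and Dusp6 and Etv5 were not called. Of all 14068 genes tested 28.3% were called higher and 30.8% lower, so 5 higher and 3 lower of 10 is close to the background in number. Without TMM scaling, 37.5% of all calls in this state were higher in place of 47.8%, and Etv1 was at 0.12 (adjusted p = 0.091).

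Dusp4 showed the largest difference, with 112, 87.2, 51.5, 103 and 143 CPM in MES-like cells against 35.5, 35.8, 18.7, 28.9 and 38.2 CPM in the others (1.74 ± 0.09, adjusted p = 9.8e-08), or 3.33-fold. The lowest MES-like sample, vehicle 4, was also the sample with the lowest Dusp4 in the other malignant cells. Spry2 measured 555, 588, 460, 516 and 663 CPM against 221, 254, 264, 210 and 289 CPM (1.26 ± 0.08, adjusted p = 1.7e-07). Spred1 averaged 727 ± 114 CPM against 470 ± 45.1 CPM (0.71 ± 0.06, adjusted p = 1.1e-07). Both groups of Spry2 values were separate in every sample. Spred2 was higher by 0.44 ± 0.09 (adjusted p = 0.0026) and Etv1 by 0.21 ± 0.06 (adjusted p = 0.0050). The lower members changed less than Dusp4, Spry2 and Spred1: Spry4 averaged 41.5 ± 11.8 CPM against 63.7 ± 5.93 CPM (-0.53 ± 0.16, adjusted p = 0.028), Etv4 61.3 ± 15.5 CPM against 88.7 ± 10.8 CPM (-0.45 ± 0.11, adjusted p = 0.0071), and Spry1 160 ± 40.0 CPM against 202 ± 39.4 CPM (-0.26 ± 0.06, adjusted p = 0.0020). Dusp6 stayed at 142 ± 18.8 CPM against 153 ± 17.1 CPM (-0.02 ± 0.06, adjusted p = 0.78).

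The genes of the genotype were higher in MES-like cells as well, Nf1 at 206, 238, 214, 242 and 218 CPM (0.54 ± 0.04) and Trp53 at 529, 685, 465, 587 and 556 CPM (1.29 ± 0.06). Genes of the dissociation response (Fos, Jun, Junb, Egr1, Hspa1a, Hspa1b, Atf3 and Dusp1) summed to 1648 to 4028 CPM in MES-like cells and to 453 to 1307 CPM in all malignant cells. Neuronal markers summed to 58.5 to 93.3 CPM in MES-like cells and to 28.9 to 35.6 CPM in all malignant cells. Median UMIs per cell were 10428 in MES-like cells and 14349 in malignant cells. The part of these measures in the result was not tested. Further ERK outputs were mostly higher, 24 of 33 against 5 lower, with Errfi1, an EGFR inhibitor, at 2.62, Dusp5 at 1.86, Egr3 at 1.80, Fosl2 at 3.62, Egr1 at 2.42 and Dusp1 at 2.27 on the log2 scale. Receptors (8 higher, 3 lower of 16), adaptors and RAS regulators (13 higher, 4 lower of 24, with Rasal2 at 1.12), kinases (5 higher, 2 lower of 9, with Map2k1 at 1.09) and ligands (3 higher, 3 lower of 13, with Vegfa, itself a gate marker, at 3.58) made up the rest. Beside these counts, 28.3% of all genes were called higher in MES-like cells and 30.8% lower. Set directly against AC-like cells, where 34.9% of genes were called higher and 33.7% lower, 7 members were higher and 1, Etv4, was lower. There Spry4 differed by 0.23 ± 0.16 (adjusted p = 0.22), the opposite sign. With only cells outside the cell cycle gates on both sides Spry4 (-0.22, adjusted p = 0.29) and Etv4 (-0.16, adjusted p = 0.18) were not called. Spry4 was also no longer called when any 1 vehicle sample was left out. It was then at -0.47 without vehicle 1+3 or vehicle 2 and -0.40 without vehicle 4. The edgeR adjusted p values were 0.0797, 0.0755 and 0.0551. In MES-like cells Spry4 averaged 33.6 CPM in vehicle and 53.4 CPM in Xevinapant samples, a difference described below.

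NPC-like cells were few, and 1 member stood out in them. Dusp4 measured 109, 116, 103, 120 and 151 CPM in 36 to 117 cells per sample against 37.7, 36.7, 19.4, 35.3 and 41.6 CPM in the other malignant cells (1.79 ± 0.11, adjusted p = 1.1e-11), a level near that of MES-like cells. Etv4 (-0.65 ± 0.17, adjusted p = 0.013) and Spry1 (-0.47 ± 0.12, adjusted p = 0.0062) were lower, against a background of 14.2% of 14109 genes called higher and 17.7% lower. Dusp6 measured 186, 420, 174, 207 and 217 CPM, with vehicle 2 far above the others, and was not called (0.59 ± 0.27, adjusted p = 0.19). Neuronal markers summed to 243 to 313 CPM in these cells and to 28.9 to 35.6 CPM in all malignant cells.

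OPC-like cells, which carry Pdgfra and Cspg4, had 5 members lower and 0 higher against backgrounds of 26.3% and 27.4%. Dusp4 was lowest in relative terms (15.6 ± 3.27 CPM against 39.0 ± 10.3 CPM, -1.25 ± 0.10, adjusted p = 2.5e-05), followed by Dusp6 (-0.57 ± 0.05), Spry2 (-0.56 ± 0.04), Etv5 (-0.31 ± 0.05) and Spred2 (-0.20 ± 0.05). With only cells outside the cell cycle gates on both sides, Etv5 was at -0.10 and was not called (edgeR adjusted p = 0.118). Spry1, Spry4, Spred1, Etv1 and Etv4 were not called, with differences between -0.07 and 0.15. In AC-like cells Spry2 was higher (0.31 ± 0.08, adjusted p = 0.0090) and 6 members were lower, Spry4 (-0.81 ± 0.09), Etv5 (-0.62 ± 0.12), Etv1 (-0.52 ± 0.06), Dusp4 (-0.41 ± 0.11), Dusp6 (-0.38 ± 0.08) and Spred1 (-0.15 ± 0.05), against backgrounds of 30.8% higher and 34.3% lower. Dusp4 thus lay at 12.1 to 25.4 CPM on average in the committed, OPC-like and AC-like states and at 99.2 to 120 CPM in the MES-like and NPC-like states.

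Called differences along the cell cycle lay between -0.59 and 0.45. S-phase cells (7482) had higher Spry4 (0.45 ± 0.05), Dusp6 (0.39 ± 0.04), Spred2 (0.29 ± 0.03), Etv4 (0.20 ± 0.04) and Spry1 (0.17 ± 0.03) and lower Spry2 (-0.14 ± 0.03) and Spred1 (-0.08 ± 0.03), against backgrounds of 29.7% higher and 29.8% lower. G2/M cells (11820) had higher Etv5 (0.39 ± 0.02), Etv4 (0.29 ± 0.04), Etv1 (0.20 ± 0.02), Spred1 (0.13 ± 0.03) and Spred2 (0.09 ± 0.03) and lower Dusp4 (-0.59 ± 0.08), Spry1 (-0.10 ± 0.02), Dusp6 (-0.08 ± 0.03) and Spry4 (-0.08 ± 0.03), against 32.2% and 34.5%. Without TMM scaling, 31.4% of the G2/M calls were higher in place of 48.2%, and the members gave 3 calls higher and 5 lower in place of 5 and 4, with Spred1 (0.04) and Spred2 (-0.00) no longer called. The Dusp6 call in G2/M was lost without vehicle 2, vehicle 4 or Xevinapant 1+2 (-0.07 to -0.04), and the Spry4 call without any 1 sample but Xevinapant 1+2 (-0.09 to -0.05). Neither was called with cells thinned to 5000 UMIs (Dusp6 -0.01, Spry4 -0.03) or by DESeq2 (-0.07 and -0.08). Median UMIs per cell were 20318 in G2/M cells and 14349 in malignant cells. By the fitted difference between G2/M and the other malignant cells, the 3 ETS factors were the highest of the members and Dusp4 the lowest, with and without TMM scaling.

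Between tumor and host cells the members divided further. Dusp6 was called lower in malignant cells than in microglia, macrophages and monocytes, neutrophils and endothelial cells, whereas Etv1 was higher in malignant cells than in each of the 6 host classes, by 2.25 to 3.58 on the log2 scale. Host cells were shallower than tumor cells, with medians of 7584 UMIs in microglia, 6142 in macrophages and monocytes, 3502 in endothelial cells, 6389 in fibroblasts, 2155 in T and NK cells and 1466 in neutrophils. Free tumor RNA was gauged by the level of 5 tumor genes (Nkx2-2, Neu4, Lhfpl3, C1ql1 and Gpr17) in host cells. It averaged 4.77% to 7.97% of the malignant level by class and reached 14.9% in the endothelial cells of 1 sample.

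Dusp6 measured 574, 556, 653, 686 and 633 CPM in microglia, against 144, 135, 155, 149 and 180 CPM in malignant cells of the same samples. No microglial value was near the tumor values, and the malignant minus microglia difference was -2.51 ± 0.09 (adjusted p = 9.5e-13). In macrophages and monocytes it measured 482, 504, 460, 686 and 600 CPM (-2.35 ± 0.14, adjusted p = 6.1e-10). In neutrophils, with enough cells in 3 samples, it measured 817 CPM in vehicle 1+3 and 868 and 839 CPM in the Xevinapant samples (-2.75 ± 0.30, adjusted p = 4.6e-19), and in endothelial cells 440, 485, 441, 631 and 470 CPM (-1.90 ± 0.14, adjusted p = 1.4e-13). In order of mean CPM the classes ran from neutrophils over microglia, macrophages and monocytes, endothelial, NPC-like, T and NK, MES-like, AC-like and OPC-like cells and fibroblasts to committed cells. Only the steps from neutrophils to microglia and from endothelial to NPC-like cells separated all samples of neighbouring classes.

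Detection was also compared at matched depth. With each cell thinned to 2000 UMIs, Dusp6 had a UMI in 65.5% ± 3.89 of microglia, 55.1% ± 4.63 of macrophages and monocytes, 52.9% ± 10.8 of endothelial cells, 21.1% ± 1.61 of malignant cells and 7.87% ± 2.75 of committed cells (SD over 5 samples). Neutrophils were at 54.6%, in the 2 samples that had a value, below microglia and within the SD of macrophages and monocytes. Unthinned, the means were 88.5% in microglia, 55.1% in malignant cells and 34.6% in committed cells. For comparison Etv1 had a UMI in 8.67% ± 1.34 of thinned microglia and 45.1% ± 6.43 of thinned malignant cells. Thinning left out 268 of 321 neutrophils under 2000 UMIs, so that their share rests on at most 53 cells. It also left out 48 of 763 microglia, 109 of 978 macrophages and monocytes, 55 of 227 endothelial cells, 98 of 2089 committed cells and 3716 of 41078 malignant cells.

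Spry4 was higher in endothelial cells, at 220, 238, 345, 572 and 264 CPM there against 60.9, 71.9, 57.9, 58.4 and 64.9 CPM in malignant cells (malignant minus endothelial -2.54 ± 0.22, adjusted p = 8.5e-07). Its thinned share was 41.4% ± 15.3 in endothelial cells, 9.97% ± 0.837 in malignant cells and 1.196% ± 0.712 in microglia. Spry1 also stood higher in endothelial cells, at 215, 230, 185, 328 and 330 CPM (-0.59 ± 0.14, adjusted p = 0.00065), and Spred2 at 97.5 ± 10.2 CPM (-0.48 ± 0.17, adjusted p = 0.016). Without TMM scaling the Spred2 difference was -0.27 and was not called (edgeR adjusted p = 0.168), and that of Spry1 was -0.39. Dusp4 was called higher in fibroblasts than in malignant cells, at 61.5, 69.7, 42.3, 94.0 and 94.6 CPM against 39.1, 37.8, 19.6, 35.8 and 43.1 CPM in malignant cells (-1.60 ± 0.15, adjusted p = 1.8e-06, and -1.07 without TMM scaling). In T and NK cells Dusp4 averaged 91.3 CPM over 4 samples, on at most 10 UMIs in a sample, and was called higher there without TMM scaling (-0.96, edgeR adjusted p = 0.047) but not with it (-0.84 ± 0.41, edgeR adjusted p = 0.091).

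By class, microglia had 8 members higher in malignant cells and 1 lower, against 38% and 31.4% of all genes. Macrophages and monocytes gave 8 and 1 against 39.8% and 30.9%, neutrophils 7 and 1 against 29.6% and 18.9%, and T and NK cells, in 4 samples, 7 and 0 against 25.3% and 16.1%. Endothelial cells gave 5 and 4 against 28.8% and 22.5%, and fibroblasts 5 and 1 against 31.3% and 29.1%. Counts in neutrophils and T and NK cells were low, with 0 or 1 UMI of Spry4 per neutrophil sample. Without TMM scaling the median of all genes moved from 0.18 to 0.66 in microglia, from 0.21 to 0.74 in macrophages and monocytes and from 0.11 to 0.63 in fibroblasts, and 54.8%, 56.3% and 51.8% of calls higher in malignant cells became 72.1%, 71.2% and 71.3%. The members called in fibroblasts then became 9 higher and 1 lower, where 7479 and 3017 of 14533 genes were called, and in endothelial cells 5 higher and 3 lower. The same scaling moved endothelial cells from 0.25 to 0.46 (56.1% to 65.8%), neutrophils from 0.84 to 1.18 (61.1% to 70.2%) and T and NK cells from 0.50 to 0.39 (61.0% to 56.3%). Dusp6 was called lower in malignant cells on that scale too, at -2.02, -1.83, -2.42 and -1.69 for microglia, macrophages and monocytes, neutrophils and endothelial cells.

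The other members were compared with their malignant level in microglia and in macrophages and monocytes. Etv5 averaged 182 ± 25.4 CPM in microglia and 170 ± 36.0 CPM in macrophages and monocytes, 52.7% and 49.2% of its malignant level of 344 ± 67.3 CPM, with fitted differences of 0.43 ± 0.10 (adjusted p = 0.0018) and 0.47 ± 0.16 (adjusted p = 0.016). Without TMM scaling these were 0.91 and 0.99. Spred1 stood at 41.0% and 38.8% and Spred2 at 62.5% and 45.7% of the malignant level in these classes, and Dusp4 at 29.9% and 118%. Spry2 (13.96% and 21.8%), Etv1 (15.03% and 13.4%), Spry1 (10.4% and 7.56%), Spry4 (10.3% and 8.61%) and Etv4 (17.9% and 10.7%) lay closer to the tumor genes used to gauge free RNA. Those averaged 6.29% in microglia (4.19% to 7.43% by sample) and 5.49% in macrophages and monocytes (2.74% to 8.32%). The mean shares of these members lay above both ranges, except Spry1 in macrophages and monocytes. How much of their level in myeloid cells was free RNA was not tested.

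**Figure D3:**
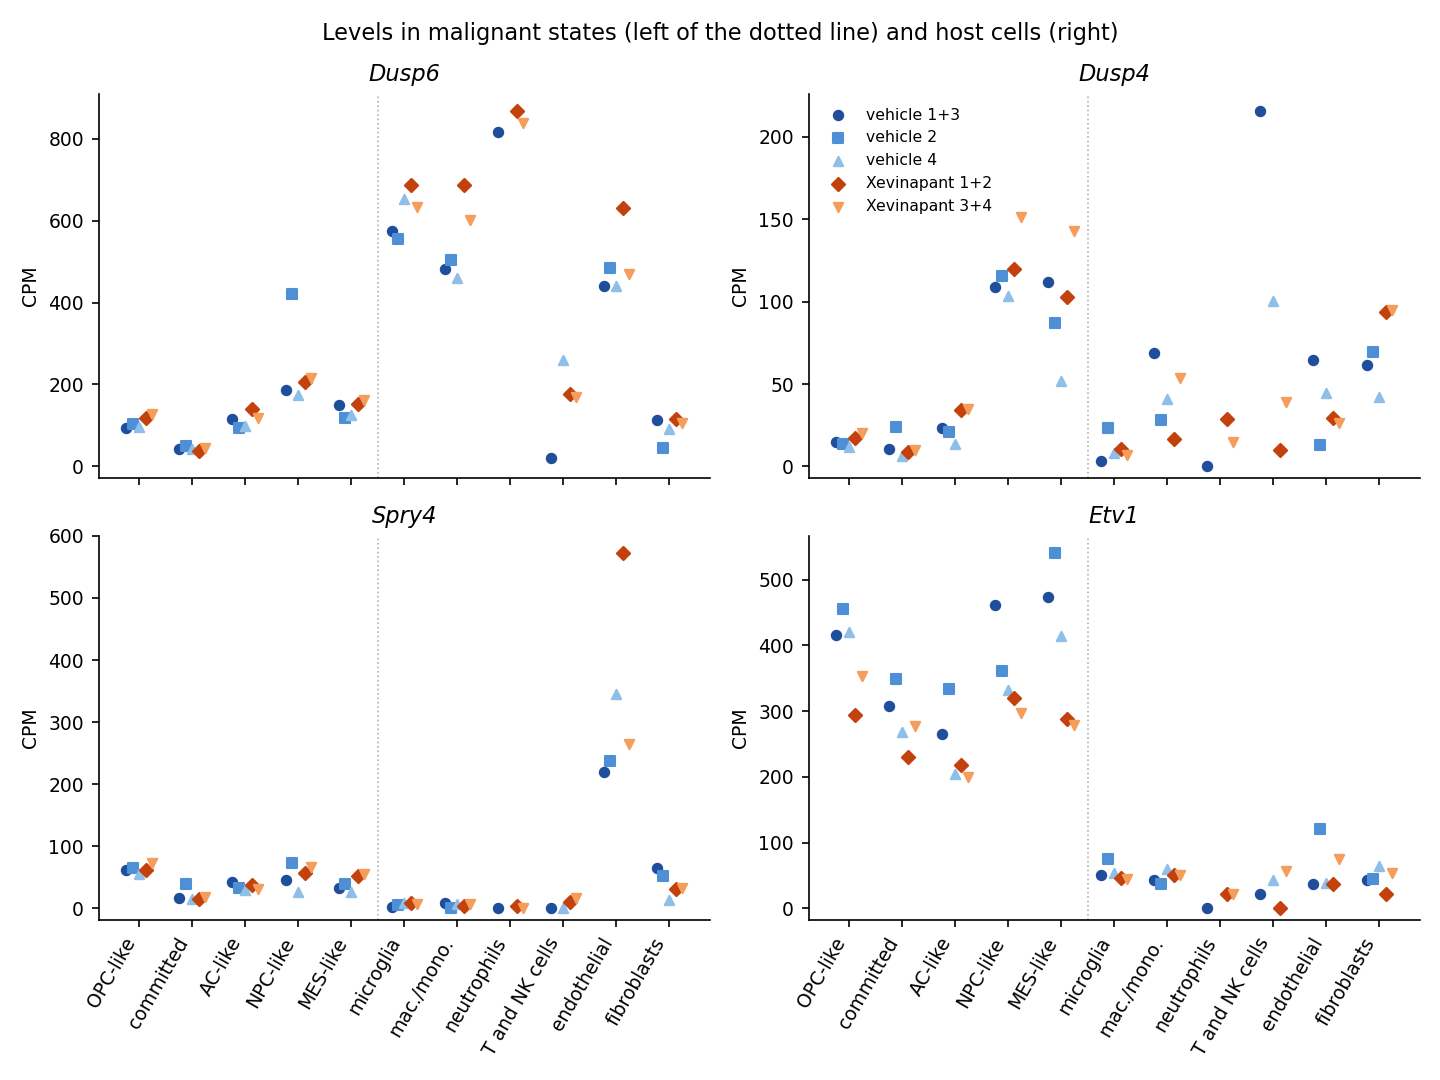
CPM of Dusp6, Dusp4, Spry4 and Etv1 (vertical axes, from 0) is plotted for each sample in the malignant states, left of the dotted line, and the host classes, right of it, with vehicle samples in blue and Xevinapant samples in orange. Dusp6 is highest in neutrophils (817 to 868 CPM), Spry4 in endothelial cells (220 to 572 CPM) and Etv1 in malignant states, and Dusp4 in T and NK cells rests on at most 10 UMIs in a sample.

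Xevinapant was compared with vehicle in the malignant cells of 3 against 2 samples, and no member passed the test. In edgeR 0 of 14526 genes (0%) were called, with 1550 at an unadjusted p under 0.05, and DESeq2 called 222 genes and no member. The median fitted change of the members was -0.03 beside 0.01 over all genes. The CPM of the 2 groups did not overlap for 29.9% of all genes and for 2 of the 10 members, Etv1 (lower with Xevinapant) and Spry1 (higher), a share below the background.

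Etv1 measured 396, 468 and 359 CPM in vehicle and 289 and 297 CPM in Xevinapant malignant cells. The Xevinapant values lay below all vehicle values, and the fitted difference was -0.52 ± 0.15 (n = 3 against 2, edgeR adjusted p = 0.45). With each of the 8 matrices counted as 1 mouse the difference was -0.50 ± 0.09 (edgeR adjusted p = 0.030), so the call depends on the unit of replication. Leaving out each sample in turn gave -0.60 to -0.41. At 2000 UMIs per cell Etv1 had a UMI in 47.5%, 53.9% and 46.3% of vehicle and 37.1% and 40.9% of Xevinapant cells, a difference of -10.2 percentage points with an exact two-sided permutation p of 0.1, the smallest that 3 against 2 samples allow, and of -6.79 points unthinned. It lay lower with Xevinapant in every malignant class fitted, from -0.27 in committed cells to -0.76 ± 0.16 in MES-like cells (edgeR adjusted p = 0.089), and was called in none of them with the joined samples. With each matrix counted as 1 mouse it was called in OPC-like cells (-0.42, edgeR adjusted p = 0.021), in MES-like cells (-0.76, edgeR adjusted p = 0.0047) and in cells without a state gate (-0.46, edgeR adjusted p = 0.037).

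Spry1 measured 167, 149 and 220 CPM in vehicle and 236 and 226 CPM in Xevinapant malignant cells (0.33 ± 0.17, edgeR adjusted p = 0.50). Vehicle 4 lay close to the Xevinapant samples. Its thinned shares were 25.4%, 23.3% and 31.3% against 33.0% and 31.5%, a difference of 5.55 points (exact permutation p = 0.2). Dusp6 measured 144, 135 and 155 against 149 and 180 CPM (0.14 ± 0.12, edgeR adjusted p = 0.68). Dusp4 measured 39.1, 37.8 and 19.6 against 35.8 and 43.1 CPM (0.25 ± 0.30), and without vehicle 4 the difference was -0.00. The groups overlapped for both phosphatases.

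For the other members the fitted differences were between -0.22 (Spred2, 75.1, 86.0 and 95.8 against 67.3 and 84.2 CPM) and 0.06 (Etv4, 87.4, 70.5 and 97.0 against 96.4 and 86.5 CPM). Spry2 (237, 267 and 269 against 238 and 307 CPM), Spry4 (60.9, 71.9 and 57.9 against 58.4 and 64.9 CPM) and Spred1 (424, 538 and 500 against 456 and 492 CPM) had groups that overlapped. Etv5 measured 281, 353 and 428 against 272 and 387 CPM, with groups that overlapped. Nf1 differed by 0.07 ± 0.11 (edgeR adjusted p = 0.83) and Trp53 by 0.18 ± 0.16 (edgeR adjusted p = 0.66).

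**Figure D4:**
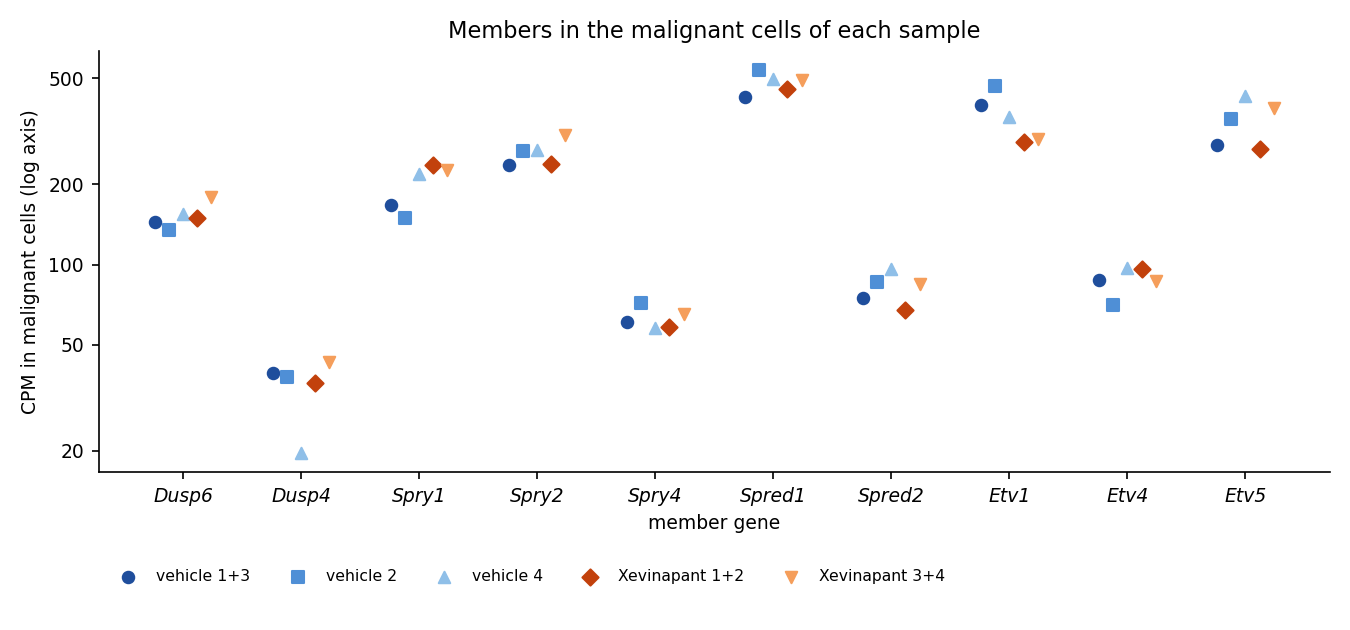
CPM in malignant cells (vertical log axis) is shown for each member and each of the 5 samples, 3 vehicle in blue and 2 Xevinapant in orange. The Xevinapant points lie below all vehicle points for Etv1 (289 and 297 against 359 to 468 CPM), above them for Spry1, and overlap with them for the other 8 members.

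Within the states and the host classes no member was called either, with all 10 members tested except in macrophages and monocytes (8 tested) and in T and NK cells (2 tested). Genes were called for 0% of all genes tested in OPC-like, committed, AC-like, S-phase and G2/M cells and in cells without a state gate, for 0.127% in MES-like cells, for 0% in microglia and fibroblasts, and for 0.222% in macrophages and monocytes, 0.153% in T and NK cells and 0.469% in endothelial cells. These are edgeR counts, and where they were 0 between 911 and 1948 genes had an unadjusted p under 0.05 in the malignant classes, 644 in microglia and 422 in fibroblasts. The fits used the states with 50 cells or more in enough samples, which left out NPC-like cells, and neutrophils lacked the vehicle samples for a test. In MES-like cells Spry4 measured 33.7, 39.9 and 27.1 CPM in vehicle and 51.6 and 55.2 CPM in Xevinapant samples (0.66 ± 0.18, edgeR adjusted p = 0.16). Etv4 measured 57.1, 44.7 and 51.4 against 83.7 and 69.6 CPM (0.57 ± 0.15, edgeR adjusted p = 0.16), and Spry1 137, 106 and 160 against 188 and 207 CPM (0.54 ± 0.16, edgeR adjusted p = 0.18). In each of these the Xevinapant values lay above the vehicle values, and Etv1 lay the other way, at 474, 540 and 414 against 288 and 279 CPM. With Dusp6 and Etv5, which also lay higher, 6 of the 10 members had groups without overlap in MES-like cells, where 34.7% of all genes tested did.

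With each matrix counted as 1 mouse, 10 calls of members were made in 4 malignant classes (edgeR). In MES-like cells Spry4 (0.67, adjusted p = 0.013), Etv4 (0.54, adjusted p = 0.030), Spry1 (0.54, adjusted p = 0.015) and Etv1 were called, among 946 of 11442 genes. In OPC-like cells Spry1 (0.42, adjusted p = 0.038), Dusp6 (0.32, adjusted p = 0.024) and Etv1 were called, among 978 of 12463 genes. Spry1 was called in committed cells (0.41, adjusted p = 0.039), among 600 of 11626 genes, and Dusp6 (0.36, adjusted p = 0.046) and Etv1 in cells without a state gate, among 376 of 13677 genes.

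The difference of the Xevinapant effect between a state and the other malignant cells was tested by itself, and no member was called. The share of genes called by edgeR was 0% for OPC-like, committed, AC-like, MES-like and G2/M cells, where 503 to 1291 genes had an unadjusted p under 0.05, 0.142% for NPC-like cells and 0.413% for S-phase cells. The closest members were Spry4 in MES-like cells (0.78 ± 0.12, edgeR adjusted p = 0.089) and Dusp4 in S phase (-0.34 ± 0.08, edgeR adjusted p = 0.099). With each matrix counted as 1 mouse both were called (0.76, edgeR adjusted p = 0.013, and -0.34, edgeR adjusted p = 0.015).

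Several measures moved with the treatment groups in malignant cells, and their part in the member values was not tested. The dissociation genes summed to 453 to 539 CPM in vehicle and 1055 to 1307 CPM in Xevinapant samples, fibroblast markers to 87.7 to 147 and 160 to 283 CPM, and pan-immune markers to 30.8 to 42.0 and 48.4 to 56.0 CPM, with none of these markers at 0. G2/M cells made up 29.9%, 31.1% and 33.6% of vehicle and 21.4% and 25.0% of Xevinapant malignant cells. MES-like cells made up 5.997%, 5.16% and 3.77% of vehicle and 11.05% and 6.83% of Xevinapant malignant cells, and OPC-like cells 14.35%, 14.54% and 17.37% against 27.75% and 15.79%, of which vehicle 4 and Xevinapant 3+4 overlap. Committed cells made up 7.12%, 2.86% and 2.75% against 10.83% and 4.81%, and these groups overlap. Among the 33 further ERK outputs none was called in malignant cells, with a median of 0.61 and the lowest p-values for the early genes Fos (2.02), Egr2 (1.14), Dusp1 (1.198), Egr1 (1.16) and Fosb (2.19, edgeR adjusted p = 0.38 for each), of which Fos, Dusp1 and Egr1 are also dissociation genes. Called with Xevinapant were Fos in MES-like cells (1.37 ± 0.19, edgeR adjusted p = 0.044) and, in endothelial cells, Fos (2.29), Ier3 (1.498), Jun (1.47) and Fosl2 (1.06). No receptor (16), ligand (13), adaptor or RAS regulator (24) or kinase (9) tested was called in malignant cells.

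Correlations between members were computed over the sums. In malignant cells there were 30 sums, of each sample in each gated state and in the cells without a state gate. Over these, 44 of 45 pairs of members had a positive Pearson r of log2 CPM, with a median of 0.621. Highest were Spred2 with Etv5 (0.923), Spry2 with Spred2 (0.918) and Dusp6 with Etv5 (0.887). The pair that was not positive was Spry1 with Etv1 (-0.11). Over 57 sums that included host classes 37 of 45 were positive, with a median of 0.510, and Dusp6 with Etv5 was at -0.01. The sums share libraries, depth and, between states, the same tumors, so these are descriptions. The 30 sums include the committed state, where every member was low, and no value for other genes was computed.

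Among 8523 genes with a mean log2 CPM of at least 4, the genes most like each member over the 57 sums were likewise found by Pearson r. Etv1 came closest to H1fx (0.971), Rlbp1 (0.959) and Bcl7a (0.956), and Spred1 to Sbf2 (0.930), Zcchc3 (0.906) and Zfp704 (0.905). Etv4 was nearest to Tshz2 (0.908), Rgs12 (0.896) and Zhx3 (0.894), and Etv5 to Gpr162 (0.832), Dennd2a (0.823) and Spsb4 (0.823). Spry4 was nearest to Dcbld1 (0.902), Zfp521 (0.896) and Mprip (0.889), Spry1 to Tril (0.878) and Zfp521 (0.863), and Spry2 to Sept9 (0.833), Sipa1l1 (0.811) and Appl1 (0.803). For Dusp6 they were Zfp710 (0.864), Sh3bp2 (0.856) and Kctd12 (0.823), and for Spred2 Stim2 (0.763), Cables1 (0.718) and Tial1 (0.714). Dusp4 had no close match, with Ier5l (0.647), Rgs16 (0.624) and Nup54 (0.621).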

How the data were processed

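The values were UMI counts per gene and cell, deposited by the authors as 8 filtered feature-barcode matrices of 10x Flex, a probe-based assay for fixed cells, aligned to mm10 (GRCm38). Per the labels Cell Ranger 3.0 and Seurat 4.0 were used, whereas the file headers name Cell Ranger 7.1.0. The molecule is given as total RNA for one sample and as polyA RNA for the other. The labels and the design text give 4 tumors per group. The 10 genes and all gene lists were chosen with earlier results of these data known.

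Kept barcodes had 200 genes or more, 10% or fewer of their UMIs from mitochondrial genes, and a log10 number of genes that was 0.8 or more of the log10 number of UMIs. Gates required 3 markers with a UMI and a minimum level per 10000 UMIs, set after marker UMIs had been seen. Cells of 2 lineages were left out as mixed, and the highest Scrublet scores (a share that grew with the number of barcodes, scanpy 1.11.5) were left out as an alternative only. Matrices of a group were joined when their gene sums differed by less than 10 times the noise expected from cell sampling. That limit was set after the ratios had been seen, because no pair met the planned limit of 1.5 on the ratio to Poisson noise, on which the joined pairs lay at 2.28 to 10.2 and the other pairs of a group at 36.2 to 116. On the ratio to cell-sampling noise these were 1.41 to 5.32 and 23.6 to 76.2.

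UMI sums per sample and class (at least 20 cells for host classes, 50 for states within treatment) were fitted with edgeR 4.0.16 in R 4.3.3 (TMM, filterByExpr, robust quasi-likelihood F test, Benjamini-Hochberg adjustment). SE is the absolute log2 difference over the square root of F. As alternatives, DESeq2 1.42.0, scaling by library size alone, fits without a low-count filter, thinning to 5000 UMIs, a mitochondrial limit of 5%, stricter gates, each matrix as 1 mouse, a replicate block and leaving out each sample were run. Shares of cells were compared after thinning to 2000 UMIs, by two-sided exact permutation (scipy 1.17.1). Named besides the 10 genes were Nf1 and Trp53, the pathway genes of lowest p (at most 10 per comparison) and the 3 genes most like each member, of which 1 is not reported here. Egr2 and Fosb, and the genes called in MES-like and endothelial cells, were named after their values were seen. The fits were tested on simulated counts with 1 set spread between samples, which was not taken from these data. For treatment, 100% of log2 changes of 1 and 59% of those of 0.5 were recovered. For states, 98% and 86% were recovered.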

Additional observations from a re-analysis of the deposited data

How the results depend on the processing

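For single genes, 150 treatment, 1069 state and 295 host values kept their direction and their side of the threshold, while 37 state and 17 host values were no longer called. The treatment and host values were of members only, whereas the state values also covered Nf1, Trp53 and pathway genes. With each matrix as 1 mouse, Etv1 was called in malignant cells (1 member, among 527 of 14051 genes), 10 calls of members were made in 4 malignant classes, where 376 to 978 genes were called, and 0 in AC-like, S-phase and G2/M cells, where 58, 38 and 5 genes were called, and 2 differences of effect between states were called, Spry4 in MES-like cells among 18 genes and Dusp4 in S phase among 484. Without Xevinapant 3+4, Dusp4 differed by -1.64 in macrophages and monocytes and Spry4 by 1.12 in endothelial cells. With all samples these differences were -0.74 and 0.64. That fit leaves 1 Xevinapant sample, whose spread cannot be measured, so only the sizes are given. NPC-like calls rose to 5 members with cells outside the cell cycle gates only (4332 of 13616 genes) and to 5 after thinning to 5000 UMIs (3073 of 12917), and fibroblasts to 10 without TMM (10496 of 14533). Treatment differences turned sign when 1 sample was left out for Dusp4 (-0.00412 to 0.40), Spry2 (-0.14 to 0.18), Spry4 (-0.15 to 0.0116), Etv4 (-0.0545 to 0.17) and Etv5 (-0.41 to 0.0553), and for Spry2 without MES-like cells (-0.0281). In MES-like cells Spry4 was at 0.23 against AC-like cells alone, and in G2/M cells Spred2 was at -0.00384 without TMM. Member calls lost without 1 sample were Spry4 in MES-like cells (-0.47 without vehicle 1+3 or 2, -0.40 without vehicle 4), Spred1 in AC-like cells (-0.16 to -0.11 without any sample but Xevinapant 1+2) and in S phase (-0.07 without vehicle 2), in G2/M cells Dusp6 (-0.07 to -0.04 without vehicle 2, 4 or Xevinapant 1+2), Spry4 (-0.09 to -0.05 without any but Xevinapant 1+2) and Spred2 (0.07 and 0.09 without vehicle 1+3 or 2), Etv5 against macrophages and monocytes (0.44 and 0.35 without vehicle 1+3 or 4), Spry2 against T and NK cells (0.51 without vehicle 4), against endothelial cells Spred1 (0.21 to 0.37) and Etv4 (0.34 to 0.49; both without any but Xevinapant 1+2) and Spred2 (-0.36 without Xevinapant 1+2), and Etv4 against fibroblasts (0.34 to 0.53 without vehicle 4 or either Xevinapant sample). The causes were not tested. The replicate numbers did not pair the matrices, with correlations of deviations of 0.34, -0.05, -0.38 and 0.36, and with the number as a block 12 genes and 0 members were called (edgeR), with Etv1 at -0.50 (adjusted p = 0.073). The treatment alternatives in T and NK cells, and neutrophils without vehicle 1+3 or either Xevinapant sample, could not be fitted.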
